A study of Mus musculus with 9 samples.

Results

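The genes described here are 10 neuropeptide precursor genes of the midbrain, Penk, Pdyn, Tac1, Cck, Nts, Vip, Npy, Sst, Cartpt and Ucn, which were taken by symbol out of the 26602 genes that had a count in at least 1 library. Midbrain containing the substantia nigra pars compacta (SNpc) came from 4 DJ-1+/+ mice and 5 DJ-1-/- mice, with 1 library per mouse. DJ-1-/- mice lack a working Park7 gene in every cell, the targeted allele having been backcrossed to C57BL/6, and the DJ-1+/+ mice were their littermates from heterozygous parents. All mice were 3 to 4 months old, no treatment was given, and the question of the comparison was how loss of DJ-1 alters midbrain transcripts. The libraries were 3′ mRNA libraries with unique molecular identifiers (UMIs), tags by which PCR duplicates of the same molecule are recognised. A count therefore does not grow with transcript length, and levels are given as cpm, the counts of a gene per 1000000 counts of its library.

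A neuropeptide is cut out of a larger precursor by proprotein convertases in the secretory pathway, is stored in dense-core vesicles and acts on G protein-coupled receptors. Most neuropeptide genes are switched on in small groups of neurons that also release glutamate, GABA or a monoamine, so the level of such a gene in a piece of tissue depends on which nuclei the piece holds. In the ventral midbrain, dopaminergic neurons are known to express Cck and Nts, and the centrally projecting Edinger-Westphal nucleus, a small midline cell group, is known for Ucn and Cartpt. In bulk tissue, fewer cells of a type and less RNA per cell cannot be told apart.

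Many neuropeptide genes respond to cyclic AMP through the cyclic AMP response element (CRE), TGACGTCA, whose half-sites are TGACG and CGTCA. RefSeq promoter windows (GRCm38.p6, 250 bases before to 50 after a transcript start) were used for 9 of the 10 genes (all but Penk), Pdyn having 2 windows. The full element, searched on both strands, was in the windows of Ucn, Cartpt and Sst, 3 of the 10 member windows, and in 1.79% of all 32851 windows. A half-site, which every full element also contains, was in 7 of the 10 member windows and in 20.8% of all windows. TATAAA or TTTATA was in the window of Vip alone among the members and in 13.6% of all windows. Ucn and Cartpt were the members with the highest ratios between the genotypes, but Sst, with the same element, had a DJ-1-/- over DJ-1+/+ ratio of 0.95. No link between the element and genotype was tested. The 3 full elements are printed in capitals with the bases around them, 5′ to 3′ on the strand of the gene.
Ucn: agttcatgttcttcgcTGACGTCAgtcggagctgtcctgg
Cartpt: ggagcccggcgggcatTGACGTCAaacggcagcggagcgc
Sst: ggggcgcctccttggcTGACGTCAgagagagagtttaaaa
These stretches lie on the minus strand at chr5:31138916-31138955 for Ucn, chr13:99900772-99900811 for Cartpt and chr16:23890869-23890908 for Sst. The element begins 44, 112 and 48 bases before the RefSeq transcript start, in that order. By the GENCODE M21 gene positions given below, the Cartpt and Sst stretches lie within the gene, and the Ucn stretch lies before it. The half-site of Vip begins 79 bases before its start, in the stretch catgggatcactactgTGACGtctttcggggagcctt on the plus strand at chr10:5639123-5639159. A match of letters is a description of the window and no evidence of binding.

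The libraries held 841974 to 886085 counts in DJ-1+/+ and 967751 to 1098125 counts in DJ-1-/- mice, so depth cannot be told apart from genotype, and 3 counts, the lowest level taken as detectable, correspond to 2.73 to 3.56 cpm. Counts of Park7 were 105 to 132 in DJ-1+/+ and 14 to 29 in DJ-1-/- mice, as the labels say. Before the neuropeptides were compared, marker lists of the tissue and of its neighbours were read in each library, since several libraries stood apart. All 12 dopaminergic markers were detected, Th and Slc6a3 among them, and 12 of 12 were higher in DJ-1-/- mice, 5 of them with an unadjusted p under 0.05. The 5 include Pitx3, which had at most 1 count in every DJ-1+/+ mouse, under the level taken as detectable, and passed the filter through its DJ-1-/- counts. Their summed level was 640 to 1200 cpm in DJ-1+/+ and 906 to 1257 cpm in DJ-1-/- mice. Hypothalamic markers summed to between 83.1 and 1164 cpm in DJ-1+/+ and between 165 and 869 cpm in DJ-1-/- mice, with 8 of 11 tested lower in DJ-1-/- mice, and Hcrt, which encodes orexin, had 0 counts in DJ-1+/+ replicate 3 against 158 in DJ-1+/+ replicate 2. The thalamic list was highest in DJ-1+/+ replicate 4 and DJ-1-/- replicate 5, at 1625 and 1533 cpm against at most 861 cpm elsewhere, with 6 of 9 markers lower in DJ-1-/- mice. In the same 2 libraries the serotonergic list was lowest, at 66.6 and 96.5 cpm, with Slc6a4, the serotonin transporter, at 0 counts in both, and 5 of 6 markers were higher in DJ-1-/- mice. Cerebellar markers were highest in DJ-1+/+ replicate 1 at 1506 cpm against at most 902 cpm elsewhere (10 of 12 lower in DJ-1-/- mice, 5 with an unadjusted p under 0.05), and choroid plexus markers in DJ-1+/+ replicate 4 at 1319 cpm (12 of 12 lower, 6 with an unadjusted p under 0.05). These calls include Gabra6, Pcp2, Fat2 and Folr1, which averaged 0.18, 0.95, 1.73 and 0.98 cpm in DJ-1-/- mice, under the level taken as detectable. Those genes passed the filter through their DJ-1+/+ counts. Cholinergic markers, including those of the oculomotor nucleus beside the Edinger-Westphal nucleus, summed to 193 to 405 cpm in the DJ-1+/+ group and 101 to 525 cpm in the DJ-1-/- group, with 7 of 9 higher in DJ-1-/- mice at a median log2 fold change of 0.44. The female-specific transcript Xist was at 0 to 2 counts in 3 libraries, DJ-1+/+ replicates 1 and 4 with DJ-1-/- replicate 5, and at 146 counts or more in the other libraries. The part that these differences in tissue had in the results below was not tested. For sex, fits with Xist as a covariate and without DJ-1+/+ libraries 1 and 4 are given. The second kept DJ-1-/- replicate 5, which was also low in Xist, so it does not compare mice of one sex. The low-Xist libraries also stood apart in tissue, so these fits cannot tell sex and tissue apart.

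All 10 neuropeptide genes were detected in at least 1 library of each genotype and passed the filter of 10 counts over the 9 libraries. Ucn was under the level taken as detectable in DJ-1+/+ replicates 2 to 4. No member had an adjusted p under 0.05 in the quasi-likelihood test of edgeR, in DESeq2 or in limma voom. Ucn, the precursor of urocortin, was the single member with an unadjusted p under 0.05, a count of 1 in each of these 3 tests. Of the 18127 genes tested, 2.82% had an unadjusted p under 0.05, 1.55% with a higher and 1.27% with a lower level in DJ-1-/- mice, and 0.00552% (Park7 alone) had an adjusted p under 0.05. The values of all 10 members overlapped between the genotypes, where 1.25% of the genes tested did not overlap. The fitted level was higher in DJ-1-/- mice for 6 members (Ucn, Cartpt, Vip, Nts, Cck and Tac1) and lower for 4 (Sst, Penk, Pdyn and Npy), and 51.8% of all genes tested had a log2 fold change above 0. The median log2 fold change of the members was 0.19, against 0.01 over all genes tested. Log2 fold changes are given as DJ-1-/- over DJ-1+/+ from edgeR with their standard errors (SE), and the edgeR adjusted p was 0.9999 for each member and for every receptor, processing gene and other precursor named. Beside them stands an exact permutation test (two-sided) on the mean cpm over the 126 splits of 9 libraries into 4 and 5, added after the data were seen, for which 0.0159 is the smallest p possible. By that test Penk and not Ucn was the single member with p under 0.05, at 0.0476 before any correction for the 10 tests.

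**Figure D1:**
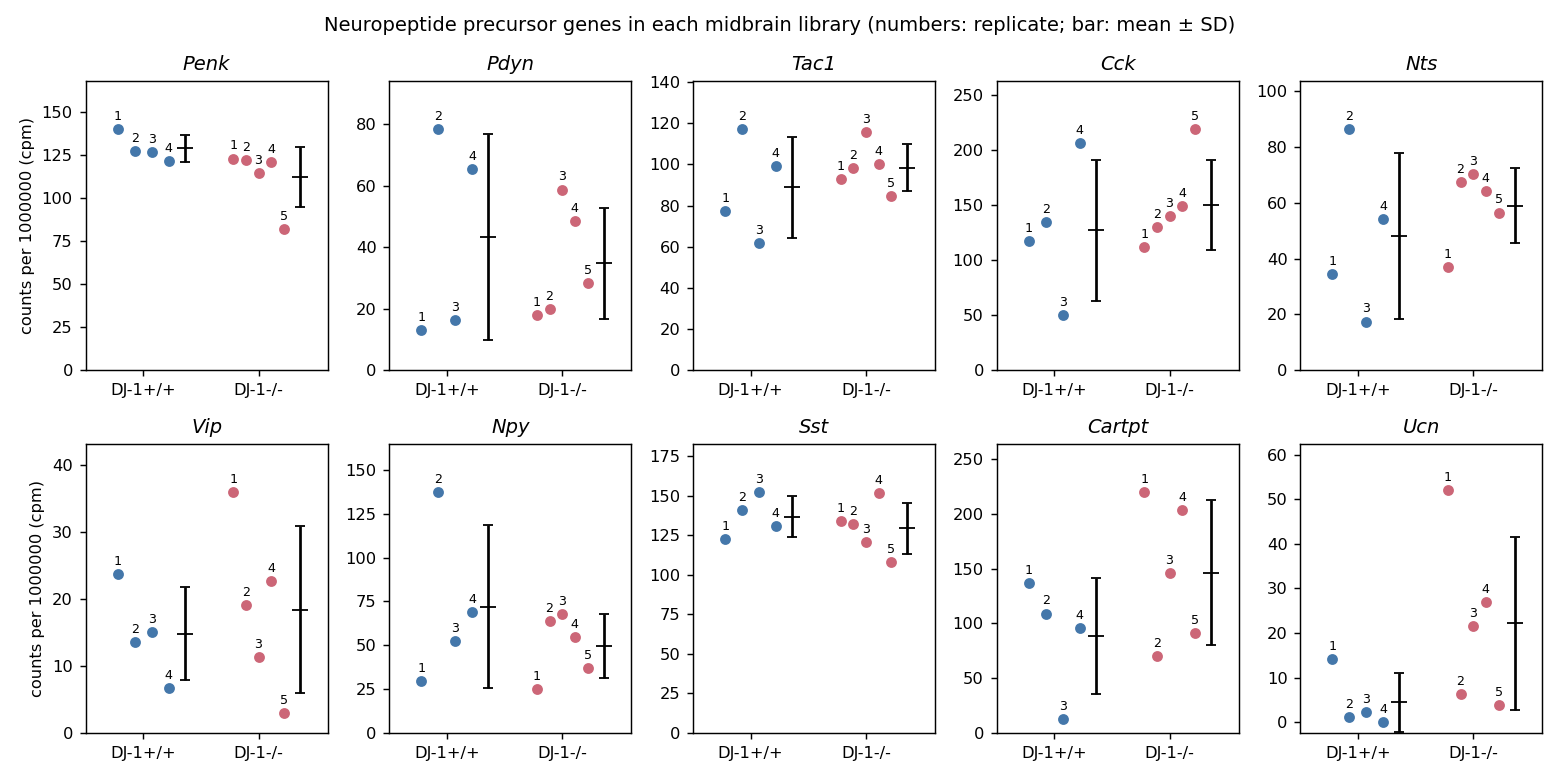
Level of each neuropeptide gene in cpm (vertical axes, one panel per gene) in the DJ-1+/+ and DJ-1-/- libraries, where each numbered point is 1 mouse and the bar is the mean ± SD. The genotypes overlap in every panel, the points of Penk and Sst spread the least for their level, and Ucn ranges from 0 to 52.0 cpm.

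Ucn and Cartpt showed the highest ratios between the genotypes. Urocortin is a relative of corticotropin-releasing hormone (CRH) and acts on the CRH receptors. Ucn (chromosome 5, 31138063 to 31138829, minus strand) had 12, 1, 2 and 0 counts in DJ-1+/+ replicates 1 to 4 and 52, 7, 21, 26 and 4 counts in DJ-1-/- replicates 1 to 5. As levels these were 14.3, 1.14, 2.33 and 0 cpm in DJ-1+/+ and 52.0, 6.37, 21.7, 26.9 and 3.90 cpm in DJ-1-/- mice. DJ-1+/+ replicates 2 to 4 were each under the 3 counts taken as detectable, so the DJ-1+/+ mean rests largely on replicate 1. Of the DJ-1-/- mice, 3 were above every DJ-1+/+ mouse and the other 2 were below DJ-1+/+ replicate 1, which held 12 of the 15 Ucn counts of its genotype. Ucn averaged 4.43 ± 6.62 cpm (SD, n = 4) with DJ-1 and 22.2 ± 19.4 cpm (SD, n = 5) without it. Its log2 fold change was 2.30 (SE 0.80), with an unadjusted p of 0.0109 from edgeR and an exact permutation p of 0.0952. The value was 1.70 without DJ-1-/- replicate 1 and 4.12 without DJ-1+/+ replicate 1, where the remaining DJ-1+/+ mice held 3 Ucn counts in all and the fitted value depends on the prior count.

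Cartpt encodes CART, a peptide of feeding, reward and stress circuits whose receptor is not firmly established. Cartpt (chromosome 13, 99898489 to 99901091, minus strand) was at 137, 109, 12.8 and 95.9 cpm in DJ-1+/+ and at 220, 70.1, 146, 204 and 91.6 cpm in DJ-1-/- mice. DJ-1+/+ replicate 3 was far below the other 8 libraries, with 11 counts, and 2 of the 5 DJ-1-/- mice lay among the DJ-1+/+ values. Cartpt averaged 88.6 ± 53.3 cpm (SD, n = 4) with DJ-1 and 146 ± 66.2 cpm (SD, n = 5) without it, a log2 fold change of 0.71 (SE 0.38, exact permutation p = 0.222). Without DJ-1+/+ replicate 3 it was 0.35. The highest libraries for Cartpt were DJ-1-/- replicates 1, 4 and 3 and then DJ-1+/+ replicate 1, and the same 4 libraries, in the same order, were the highest for Ucn. The cholinergic markers were lowest in DJ-1+/+ replicate 4 and DJ-1-/- replicate 5, where Ucn had 0 and 4 counts, and they were at 525 cpm in DJ-1-/- replicate 2, where Ucn had 7 counts.

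**Figure D2:**
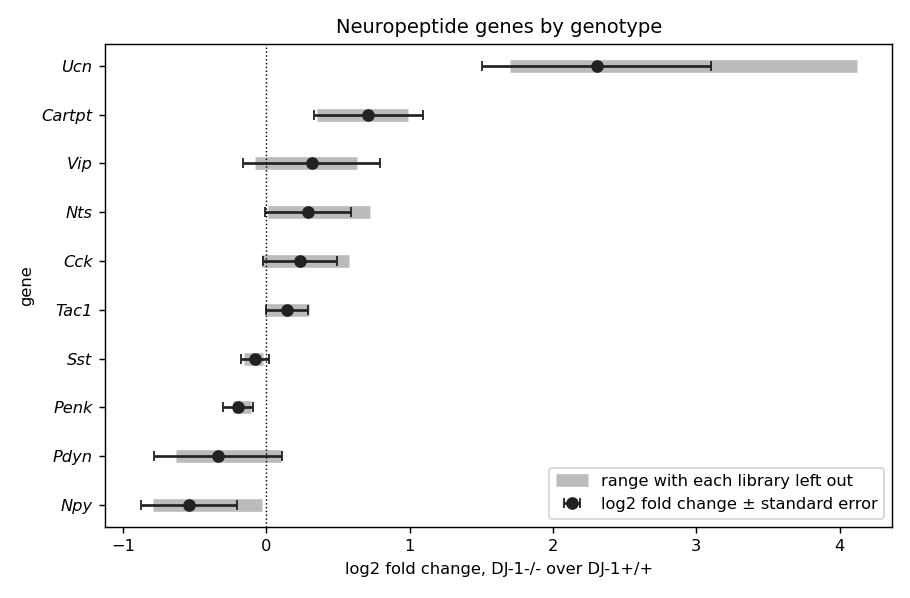
Log2 fold change of each neuropeptide gene, DJ-1-/- over DJ-1+/+ (horizontal axis), from edgeR, with points and bars for the value ± SE and a grey band for the range over the 9 fits that each leave out 1 library. Ucn stands apart at 2.30 with a band from 1.70 to 4.12, and the bands of Pdyn, Cck and Vip cross 0.

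The opioid precursors differed in how evenly they were expressed. Penk encodes proenkephalin, the source of the enkephalins, which act mainly on delta and mu opioid receptors. Penk (chromosome 4, 4133531 to 4138819, minus strand) was at 140, 127, 127 and 122 cpm in DJ-1+/+ and at 123, 122, 115, 121 and 81.9 cpm in DJ-1-/- mice. DJ-1-/- replicate 5 was low, and the other 8 libraries lay between 115 and 140 cpm. Penk averaged 129 ± 7.80 cpm (SD, n = 4) with DJ-1 and 112 ± 17.4 cpm (SD, n = 5) without it, a log2 fold change of −0.20 (SE 0.10, exact permutation p = 0.0476), and edgeR's unadjusted p was over 0.05. Without DJ-1-/- replicate 5 the log2 fold change of Penk was −0.11. The gene overlaps A830012C17Rik on the other strand, and the strand setting of the counting is not given in the sources used here, so reads of the pair cannot be told apart.

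Pdyn encodes prodynorphin, the source of dynorphins, which act on the kappa opioid receptor, and it is known from orexin neurons of the hypothalamus. Pdyn (chromosome 2, 129686565 to 129699844, minus strand) was at 13.1, 78.4, 16.3 and 65.5 cpm in DJ-1+/+ and at 18.0, 20.03, 58.8, 48.6 and 28.3 cpm in DJ-1-/- mice. The libraries fell into high and low values within both genotypes, and the top was held by replicates 2 and 4 of the DJ-1+/+ and 3 and 4 of the DJ-1-/- mice. Those 4 libraries were also the highest for Hcrt, at 180 and 140 cpm in the DJ-1+/+ pair and at 156 and 149 cpm in the DJ-1-/- pair, and DJ-1-/- replicate 5 came next for both genes. In DJ-1+/+ replicates 1 and 3, Pdyn was at its 2 lowest values and Hcrt at 2.38 and 0 cpm. Hcrt is 1 of 12 hypothalamic markers, and these did not all share the 4 highest libraries of Pdyn. Pmch, another of them, did, but Avp, Oxt and Agrp did not. Avp was at 11.3 cpm in DJ-1+/+ replicate 4, lower than the 18.6 cpm of DJ-1+/+ replicate 3. Among the DJ-1-/- mice, Avp was lower in replicate 4 than in replicate 2, at 1.03 against 23.7 cpm. Pdyn ran the other way in both of these comparisons. The source of Pdyn was not tested. Between the genotypes the log2 fold change of Pdyn was −0.34 (SE 0.45, exact permutation p = 0.619), and with 1 library left out it ran from −0.63 without DJ-1+/+ replicate 1 to 0.10 without DJ-1+/+ replicate 2.

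Tac1 encodes the precursor of substance P and neurokinin A, ligands of the tachykinin receptors, and is known from striatal projection neurons. Striatal markers summed to 254 to 419 cpm in DJ-1+/+ and 250 to 305 cpm in DJ-1-/- mice, highest in DJ-1+/+ replicate 4. Of these markers, 7 of 8 were lower in DJ-1-/- mice, 1 with an unadjusted p under 0.05 from edgeR. Tac1 (chromosome 6, 7554879 to 7565834, plus strand) was at 77.2, 117, 61.7 and 99.3 cpm in DJ-1+/+ and at 93.1, 98.3, 116, 100 and 84.8 cpm in DJ-1-/- mice. The DJ-1+/+ values spanned a wider range than the DJ-1-/- values and enclosed all 5 of them. For Tac1 the log2 fold change was 0.14 (SE 0.15, exact permutation p = 0.492). It was 0.00069 without DJ-1+/+ replicate 3, 0.082 without either DJ-1+/+ replicate 1 or DJ-1-/- replicate 3, and 0.30 without DJ-1+/+ replicate 2.

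As for every member, the values of Cck, Nts and Vip spanned more among the DJ-1-/- mice than their means differed between the genotypes. Cck encodes cholecystokinin, which acts on the receptors Cckar and Cckbr. Cck (chromosome 9, 121489824 to 121495694, minus strand) was at 118, 135, 50.03 and 207 cpm in DJ-1+/+ and at 112, 130, 140, 150 and 219 cpm in DJ-1-/- mice. Its 2 highest libraries, DJ-1+/+ replicate 4 and DJ-1-/- replicate 5, were the 2 with the highest thalamic markers, where Tcf7l2, a thalamic transcription factor, was at 323 and 322 cpm against at most 166 cpm elsewhere. Cck had a log2 fold change of 0.23 (SE 0.26, exact permutation p = 0.476). It was −0.032 without DJ-1+/+ replicate 3, 0.049 without DJ-1-/- replicate 5 and 0.57 without DJ-1+/+ replicate 4, the last with an unadjusted p under 0.05 and an adjusted p of 0.999 from edgeR. With Xist as a covariate it was 0.51, also with an unadjusted p under 0.05 from edgeR. The low-Xist libraries include DJ-1+/+ replicate 4 and DJ-1-/- replicate 5, so this covariate cannot tell sex apart from the thalamic difference.

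Nts encodes the precursor of neurotensin, a peptide that modulates dopamine neurons through Ntsr1. Nts (chromosome 10, 102481756 to 102490486, minus strand) was at 34.4, 86.4, 17.5 and 54.2 cpm in DJ-1+/+ and at 37.0, 67.4, 70.1, 64.1 and 56.5 cpm in DJ-1-/- mice. DJ-1+/+ mice held both the highest and the lowest value, and 4 of the 5 DJ-1-/- mice lay close together. Nts had a log2 fold change of 0.29 (SE 0.30, exact permutation p = 0.492). It was 0.012 without DJ-1+/+ replicate 3 and 0.16 without DJ-1+/+ replicate 1. Without DJ-1+/+ replicate 2 it was 0.72, with an unadjusted p under 0.05 and an adjusted p of 0.997 from edgeR.

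Vip encodes vasoactive intestinal peptide, a ligand of Vipr1 and Vipr2. Vip (chromosome 10, 5639218 to 5647617, plus strand) had 20, 12, 13 and 6 counts in DJ-1+/+ and 36, 21, 11, 22 and 3 counts in DJ-1-/- mice, or 6.77 to 23.8 cpm and 2.92 to 36.03 cpm. Its 2 lowest libraries, DJ-1+/+ replicate 4 and DJ-1-/- replicate 5, were the 2 in which the serotonergic markers were lowest, and its highest, DJ-1-/- replicate 1, was also the highest for Tph2, the enzyme of serotonin synthesis in neurons, at 111 cpm. Other libraries did not follow this order. The serotonergic list summed to 369 cpm in DJ-1+/+ replicate 3 and 199 cpm in DJ-1-/- replicate 2, where Vip was at 15.1 and 19.1 cpm. The source of Vip was not tested. Vip had a log2 fold change of 0.31 (SE 0.48, exact permutation p = 0.635). With 1 library left out it ran from −0.078 without DJ-1-/- replicate 1 and 0.074 without DJ-1+/+ replicate 4 to 0.59 without DJ-1-/- replicate 5 and 0.63 without DJ-1+/+ replicate 1. With Xist as a covariate the log2 fold change of Vip was 0.051, and with limma voom it was 0.061. Xist was low in both libraries with the lowest serotonergic markers, so its covariate cannot tell sex apart from that difference.

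**Figure D3:**
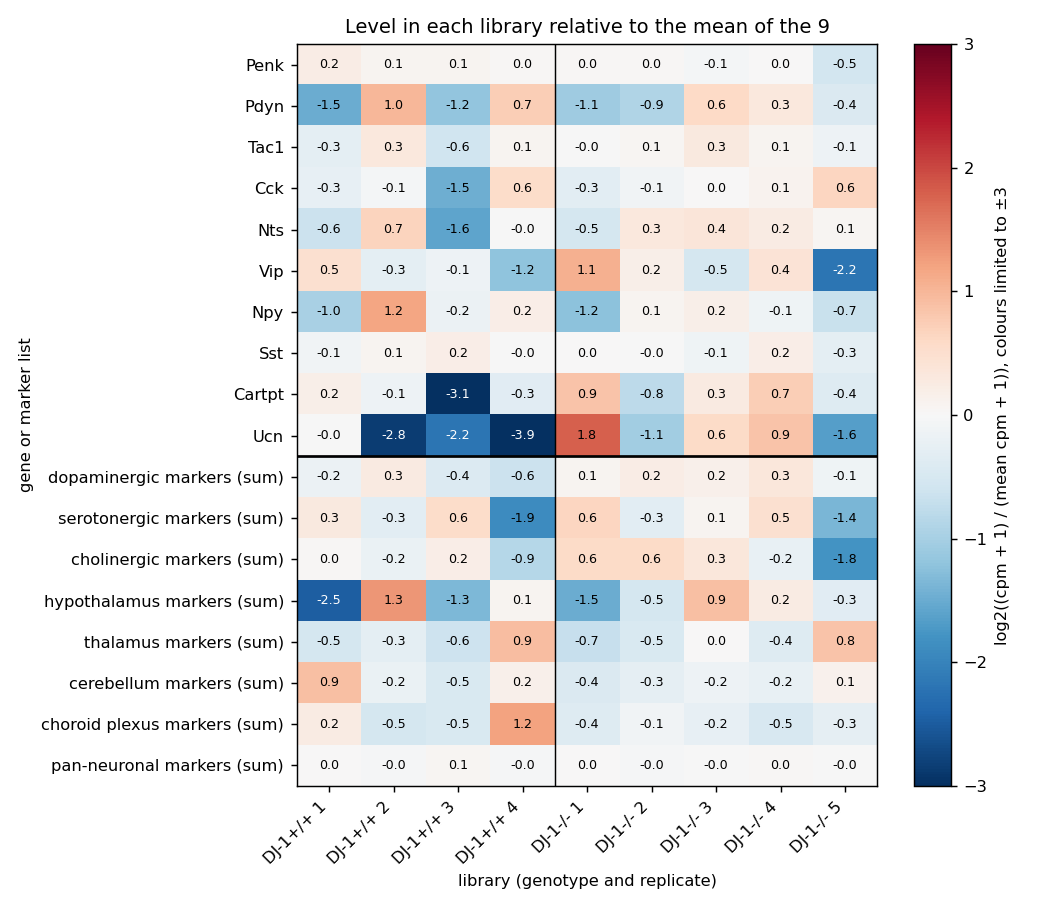
Level of each neuropeptide gene and of the sum of each marker list in each library (columns), as log2 of (cpm + 1) over (mean cpm of the 9 libraries + 1), red above and blue below the mean. The pan-neuronal sum differs by at most 0.1 from its mean, while the hypothalamic sum runs from −2.5 in DJ-1+/+ replicate 1 to 1.3 in DJ-1+/+ replicate 2, and Pdyn runs from −1.5 to 1.0 in the same 2 libraries.

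Npy and Sst, both best known from interneurons, contrasted in their spread. Npy encodes neuropeptide Y, a feeding and stress peptide of the Y receptors. Npy (chromosome 6, 49822710 to 49829507, plus strand) was at 29.7, 138, 52.4 and 68.8 cpm in DJ-1+/+ and at 25.02, 63.7, 68.1, 54.8 and 37.0 cpm in DJ-1-/- mice. DJ-1+/+ replicate 2 was about 2 times as high as any other library, and it was also the library with the highest hypothalamic markers, at 1164 cpm, and with 51 of the 74 counts of Agrp, a peptide gene of hypothalamic neurons that also express Npy. Npy had a log2 fold change of −0.54 (SE 0.34, exact permutation p = 0.444). It was −0.029 without DJ-1+/+ replicate 2 and −0.79 without DJ-1+/+ replicate 1, the latter with an unadjusted p under 0.05 and an adjusted p of 0.999 from edgeR.

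Sst encodes somatostatin, an inhibitory peptide of the receptors Sstr1 to Sstr5. Sst (chromosome 16, 23889573 to 23890958, minus strand) was at 122, 141, 152 and 131 cpm in DJ-1+/+ and at 134, 132, 121, 152 and 108 cpm in DJ-1-/- mice. The values of the genotypes lay over each other, with the highest libraries of both at 152 cpm. For Sst the log2 fold change was −0.08 (SE 0.10, exact permutation p = 0.508). It was −0.026 without DJ-1+/+ replicate 3, −0.028 without DJ-1-/- replicate 5, −0.13 without DJ-1+/+ replicate 1 and −0.15 without DJ-1-/- replicate 4.

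Across all 9 libraries the order of mean levels was Cck (140 cpm), Sst (133 cpm), Cartpt (121 cpm), Penk (120 cpm), Tac1 (94.1 cpm), Npy (59.7 cpm), Nts (54.2 cpm), Pdyn (38.5 cpm), Vip (16.8 cpm) and Ucn (14.3 cpm). The order differed between the genotypes: the first were Sst (137 cpm), Penk (129 cpm) and Cck (127 cpm) in the DJ-1+/+ group, with Cartpt (88.6 cpm) after Tac1 (88.8 cpm), and Cck (150.3 cpm), Cartpt (146 cpm) and Sst (129 cpm) in the DJ-1-/- group. Of the neighbours in the order over all libraries, only Penk over Tac1 and Tac1 over Npy differed by more than the SD of their differences within libraries. The differences were 25.7 ± 24.4 cpm (SD, n = 9, Tac1 lower in 7 of 9 libraries) and 34.5 ± 26.1 cpm (SD, n = 9, Npy lower in 8 of 9 libraries). The coefficient of variation over the 9 libraries was lowest for Sst (10.9%), Penk (13.2%) and Tac1 (18.8%), between 35.9% and 63.8% for Cck, Nts, Cartpt, Npy, Vip and Pdyn, and 119% for Ucn. The highest library exceeded the lowest by 17.2 times for Cartpt and 12.3 times for Vip, and by 1.41 times for Sst.

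Part of such a spread is counting error, and the variance within genotypes was therefore divided by the variance that counting alone gives. This ratio was 1.62 for Sst and 1.76 for Penk, 3.22 for Tac1, 6.07 for Vip and 8.46 for Nts. It was 13.7 for Ucn, 14.9 for Npy, 15.0 for Pdyn, 18.6 for Cck and 29.6 for Cartpt. For Cartpt 99.8% of the genes tested had a lower ratio, for Cck 99.5%, for Pdyn and Npy 99.3% and for Ucn 99.2%, against 75.2% for Penk and 71.0% for Sst. Over the 3034 genes with a mean of 100 to 200 counts, the level of Cck, Cartpt, Penk and Sst, the median ratio was 0.92. It was under 1 for 55.2% of them. Over the 359 genes with a mean of 200 to 2000 counts the median ratio was 1.49. High counts lay close together in these libraries: 10 genes exceeded 500 counts in any library, the highest count was 1359, and whether the number of distinct UMIs limits high counts was not tested.

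For the 8 members with a mean of at least 20 counts per library, the genes whose log2(cpm + 1) over the 9 libraries was most like theirs were sought among 10762 genes. The values of r (Pearson) are descriptions over 9 libraries that share their dissection and depth, and they were chosen as the highest of many. Pdyn was nearest to Pou2f2 (r = 0.98), Nlgn3 and Ormdl3, and Cck to Nwd2 (r = 0.99), Fam20c and Ramp3. Ramp3, a member of the thalamic marker list, had 21, 63, 7 and 139 counts in DJ-1+/+ and 28, 48, 83, 40 and 161 counts in DJ-1-/- mice, with its highest values in the libraries where Cck was highest. Nts was nearest to Syt17 (r = 0.98), Rprm and A230006K03Rik, and Tac1 to Arhgap6 (r = 0.97), Pacs1 and Bcl9. Npy was nearest to Cxadr (r = 0.96), Creg2 and Dpysl5, Sst to Cd99l2 (r = 0.95), Etv4 and Utrn, and Cartpt to Sox1ot (r = 0.97), Uri1 and Pofut1. Penk was nearest to Snord13 (r = 0.96), Lman2 and Nt5dc2, each of which had its lowest count in DJ-1-/- replicate 5, where Penk was also lowest.

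The receptor list held 26 genes, among them Oprl1 and Adcyap1r1, which are mainly receptors of peptides outside the members. Of the 26, 22 passed the filter, 14 with a higher and 8 with a lower fitted level in DJ-1-/- mice. Their median log2 fold change was 0.05 and ran from −0.015 without DJ-1+/+ replicate 1 to 0.14 without DJ-1+/+ replicate 2. Ntsr1, the neurotensin receptor of dopamine neurons, was the single receptor with an unadjusted p under 0.05. Ntsr1 had 4, 16, 10 and 10 counts in DJ-1+/+ and 19, 28, 14, 21 and 14 counts in DJ-1-/- mice, and 2 of the 5 DJ-1-/- mice lay under DJ-1+/+ replicate 2 as counts and in cpm. Its log2 fold change was 0.71 (SE 0.33), in libraries where 12 of 12 dopaminergic markers were also higher. The receptors of urocortin, Crhr1 and Crhr2, had log2 fold changes of −0.02 (SE 0.37) and 0.03 (SE 0.65). Crhr2 had 1 to 3 counts in each library, at or under the level taken as detectable. The receptor values ran from −0.65 (SE 0.79) for Oprd1, the delta opioid receptor, to 0.91 (SE 0.72) for Sstr5. Both rest on few counts, 0 to 4 per library for Oprd1 and 0 to 6 for Sstr5. The most abundant gene of the list was Adcyap1r1, the PACAP receptor, at 172 cpm over all libraries, and Sstr4 had 0 counts in all 9.

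All 22 genes of peptide processing and dense-core vesicles passed the filter, and the unadjusted p of edgeR was under 0.05 for 0 of them. Of these, 10 had a higher and 12 a lower fitted level in DJ-1-/- mice, at a median log2 fold change of −0.00031, and of −0.016 to 0.016 with 1 library left out. Their summed level differed little between libraries, 2746 to 2881 cpm in the DJ-1+/+ group and 2768 to 2991 cpm in the DJ-1-/- group. The most abundant was Cpe, the carboxypeptidase that trims peptide ends, which averaged 349 ± 19.2 cpm (SD, n = 4) with DJ-1 and 343 ± 18.6 cpm (SD, n = 5) without it. The log2 fold changes ran from −0.11 (SE 0.09) for Cpd, another carboxypeptidase, to 0.34 (SE 0.29) for Crhbp, which binds CRH and urocortin outside the cell.

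**Figure D4:**
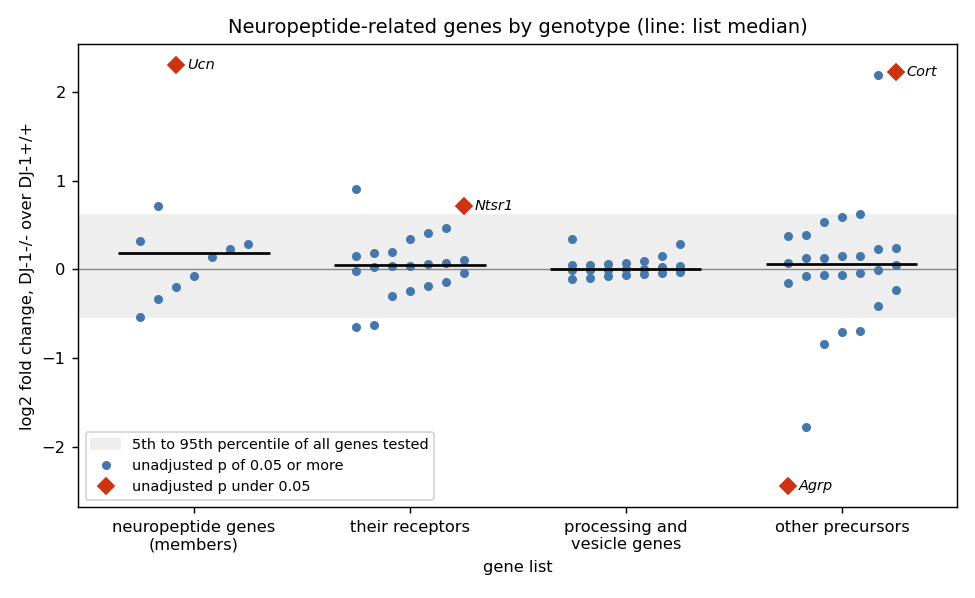
Log2 fold change, DJ-1-/- over DJ-1+/+ (vertical axis), of the tested neuropeptide genes, receptor list, processing and vesicle genes, and other neuropeptide precursors. Lines mark the list medians and red diamonds an unadjusted p under 0.05 from edgeR. A grey band runs from the 5th to the 95th percentile of all genes tested (−0.54 to 0.61). Processing genes lie within −0.11 and 0.34, and Ucn, Ntsr1, Cort and Agrp are the diamonds.

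Of 38 other neuropeptide precursors, 28 passed the filter, 15 with a higher and 13 with a lower fitted level in DJ-1-/- mice, at a median of 0.06. With 1 library left out this median ran from −0.13 without DJ-1+/+ replicate 1 to 0.41 without DJ-1+/+ replicate 2. Galp, Npff, Nppb and Kiss1 had 0 counts in every library. Cort and Agrp were the precursors with an unadjusted p under 0.05. Cort, the precursor of the somatostatin-like cortistatin, had 1, 1, 0 and 0 counts in DJ-1+/+ and 1, 3, 7, 5 and 0 counts in DJ-1-/- mice, so that every DJ-1+/+ mouse was under the level taken as detectable and the gene passed the filter through its DJ-1-/- counts. Agrp had 1, 51, 5 and 2 counts in DJ-1+/+ and 1, 2, 11, 1 and 0 counts in DJ-1-/- mice, with most counts of its genotype in DJ-1+/+ replicate 2. Agrp had a log2 fold change of −2.45 (SE 0.97). The most abundant gene of this list was Pmch, the precursor of melanin-concentrating hormone of the lateral hypothalamus, with 9.501 to 239 cpm in the DJ-1+/+ group and 14.0 to 222 cpm in the DJ-1-/- group.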

How the data were processed

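RNA-seq of midbrain tissue gave 1 table per mouse, deposited by the authors as UMI counts per Ensembl gene, without normalization. The submitters' notes name fastp 0.20.0, STAR 2.7.3a, Subread, featureCounts 2.0.0, UMI-tools 1.0.0 and GRCm38. A gene missing from a table was given 0 counts. Symbols and positions are from GENCODE M21, which held 26570 of 26602 genes. The 18127 genes whose counts over the libraries summed to 10 or more were tested with edgeR 4.0.16 (TMM, estimateDisp, glmQLFit, glmQLFTest) in R 4.3.3, with genotype as the only term and Benjamini-Hochberg adjustment over all of them. SE is the log2 fold change over the square root of F. Alternatives used DESeq2 1.42.0, limma voom 3.58.1, other normalizations and filters, thinned counts, a block on replicate number, Xist as a covariate, and libraries left out. Exact permutation tests of mean cpm (scipy 1.17.1) were added after the data were seen.

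The members and gene lists were chosen with earlier results of these data known. The genes named are all members, Park7, list genes with an unadjusted p under 0.05, the extremes and the most abundant gene of each list, and the 3 nearest patterns of each member. Marker genes, Crhr1 and Crhr2 were named beside a result after their values were seen. Between 16 pairs of libraries of one genotype, the chi-square statistic per degree of freedom was 1.07 to 2.27, so none was a copy. The edgeR fit was tested on simulated data, where 193 tested genes carried a log2 change of 1.5, and it recovered 155 of them with 14 false calls. Every simulated gene had the same dispersion, the variance between mice beyond counting, of 0.02. The recovery therefore does not apply to members with a larger spread, such as Cartpt, Cck, Pdyn, Npy and Ucn. Detection limits cover counting error only.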

Additional observations from a re-analysis of the deposited data

Results flagged for a closer look

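In 2 of the 20 gene and genotype groups examined, 1 library lay farther from the others than Dixon's test allows, and about 1 in 20 such groups is marked by chance. Penk was at 81.9 cpm in DJ-1-/- replicate 5, where the next lowest DJ-1-/- library was at 115 cpm. Ucn was at 14.3 cpm in DJ-1+/+ replicate 1, where the next highest DJ-1+/+ library was at 2.33 cpm.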

How the results depend on the processing

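Over 19 alternative fits the sign of the log2 fold change was kept for 7 of the 10 members in all of them. It turned for Pdyn without DJ-1+/+ replicate 2, for Cck without DJ-1+/+ replicate 3 and for Vip without DJ-1-/- replicate 1, and over the fits that left out 1 library it ranged from −0.63 to 0.10 for Pdyn, from −0.032 to 0.57 for Cck and from −0.078 to 0.63 for Vip. Ucn had an unadjusted p under 0.05 in 19 of 19 of these fits, Cartpt in 6, Npy in 4, Cck in 3, Penk in 2 and Nts in 1, and Pdyn, Tac1, Vip and Sst in 0. In the exact permutation test of mean cpm, added after the data were seen, Ucn had p = 0.0952 and Penk p = 0.0476. The number of members with an unadjusted p under 0.05 was 3 without a filter on low counts, 2 with thinned counts and 4 with Xist as a covariate (Penk, Cck, Npy and Ucn). It was 4 without both DJ-1+/+ libraries 1 and 4, a fit that kept the low-Xist DJ-1-/- replicate 5, and 1 to 3 with each library left out. Without a filter on low counts, 2 members had an adjusted p under 0.05, Ucn (0.00244) and Cartpt (0.0141). The genes tested with an unadjusted p under 0.05 numbered 802 and those with an adjusted p under 0.05 numbered 36 in that fit, against 511 and 1. The first number was 338 with filterByExpr, 235 with DESeq2 and 338 to 732 with each library left out, and the second was 1 to 2 with each library left out. The cause was not tested. Replicate numbers come from the labels, and nothing says that they pair the mice: deviations of same-numbered libraries correlated at 0.29, 0.06, −0.12 and −0.20. With the replicate number as a block, the log2 fold change of Penk was −0.11, 2 members (Ucn and Cartpt) had an unadjusted p under 0.05, Ucn had an adjusted p of 0.0542 at a log2 fold change of 2.71, and 8 genes had an adjusted p under 0.05. Depth limits Vip and Ucn, with means of 16 and 13.9 counts.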
